A study of Homo sapiens with 14 samples.

Results

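The distribution of RNA polymerase II at the promoters of HCT116 cells in solvent alone was read by setting 2 ChIP-seq libraries against 2 libraries of input, the same sheared chromatin sequenced without immunoprecipitation. These 4 of the 14 libraries of the series were chosen by their labels: wild-type HCT116, a human colorectal carcinoma line, electroporated without peptide (water) and kept for 3 h in 0.1% DMSO. The antibody, 3E8, recognises the polymerase phosphorylated at Ser5. All 28159 windows of the deposited table entered, each 1000 bp long and placed by the authors at 1 transcription start per gene. A further group served for comparison only: the same cells and solvent, electroporated with 10 µM of a bivalent peptide and given 200 nM more in the medium, with 1 ChIP library (replicate 2) and 2 inputs. The series was made to study how that peptide acts on the response to the p53 activator Nutlin3a, and the Nutlin3a libraries were not compared here. All cells, the controls included, were electroporated.

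RNA polymerase II carries a long repetitive tail. Ser5 of the repeat is phosphorylated by the kinase of the initiation factor TFIIH as the enzyme leaves the promoter, so the mark is densest near start sites, where polymerase often pauses before it elongates. Input shows how much of each region is sampled with no antibody, which depends on copy number, shearing and mappability. The ratio of ChIP to input is therefore a relative occupancy per window and not a number of polymerases or a rate of transcription.

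Promoter sequences from both ends of the ranking are shown to make the base composition of single windows visible. They are the 250 bases before the RefSeq gene start (GRCh38.p14), 5′ to 3′ on the gene's strand, for the 4 highest and the 4 lowest ranked windows that held such an entry and could be shown. The windows were taken in rank order among called windows with at least 10 counts in each input. Capitals mark CG dinucleotides. The first 4 belong to windows with high ChIP over input.
HIST2H3A: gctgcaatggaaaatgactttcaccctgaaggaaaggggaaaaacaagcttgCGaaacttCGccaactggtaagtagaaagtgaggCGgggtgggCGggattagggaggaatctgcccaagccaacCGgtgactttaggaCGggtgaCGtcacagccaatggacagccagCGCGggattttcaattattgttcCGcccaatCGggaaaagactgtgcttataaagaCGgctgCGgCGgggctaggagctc
PRKG1-AS1: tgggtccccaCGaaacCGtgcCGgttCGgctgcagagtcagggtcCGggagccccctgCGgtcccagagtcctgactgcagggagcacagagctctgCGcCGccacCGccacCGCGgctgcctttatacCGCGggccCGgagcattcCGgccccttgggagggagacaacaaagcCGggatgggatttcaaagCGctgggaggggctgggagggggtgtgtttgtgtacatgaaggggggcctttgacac
CSKMT: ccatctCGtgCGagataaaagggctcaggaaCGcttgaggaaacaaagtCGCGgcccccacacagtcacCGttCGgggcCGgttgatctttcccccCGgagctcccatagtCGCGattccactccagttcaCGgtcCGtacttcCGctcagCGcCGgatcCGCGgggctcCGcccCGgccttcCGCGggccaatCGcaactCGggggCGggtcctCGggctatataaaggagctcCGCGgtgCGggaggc
PTMA: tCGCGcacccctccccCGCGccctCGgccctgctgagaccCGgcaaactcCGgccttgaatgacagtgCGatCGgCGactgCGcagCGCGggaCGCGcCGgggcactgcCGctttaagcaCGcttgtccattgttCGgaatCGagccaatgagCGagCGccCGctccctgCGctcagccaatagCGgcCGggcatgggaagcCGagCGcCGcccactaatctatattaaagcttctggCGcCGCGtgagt
The next 4 belong to windows with low ChIP over input.
LOC101928626: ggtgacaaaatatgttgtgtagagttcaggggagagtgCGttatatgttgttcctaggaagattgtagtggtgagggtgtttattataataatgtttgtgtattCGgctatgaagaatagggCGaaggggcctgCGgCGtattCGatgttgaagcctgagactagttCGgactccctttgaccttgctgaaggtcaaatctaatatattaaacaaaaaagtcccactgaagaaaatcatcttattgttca
KRT82: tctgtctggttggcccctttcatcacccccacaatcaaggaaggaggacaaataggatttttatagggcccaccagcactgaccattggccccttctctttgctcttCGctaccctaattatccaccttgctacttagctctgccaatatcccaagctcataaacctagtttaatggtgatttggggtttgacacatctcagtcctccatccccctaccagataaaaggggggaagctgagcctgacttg
CIDEC: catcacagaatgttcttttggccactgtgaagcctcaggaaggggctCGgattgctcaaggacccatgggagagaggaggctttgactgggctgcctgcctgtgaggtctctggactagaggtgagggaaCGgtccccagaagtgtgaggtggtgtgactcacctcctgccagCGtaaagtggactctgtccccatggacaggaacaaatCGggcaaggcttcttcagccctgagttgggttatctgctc
LINC00593: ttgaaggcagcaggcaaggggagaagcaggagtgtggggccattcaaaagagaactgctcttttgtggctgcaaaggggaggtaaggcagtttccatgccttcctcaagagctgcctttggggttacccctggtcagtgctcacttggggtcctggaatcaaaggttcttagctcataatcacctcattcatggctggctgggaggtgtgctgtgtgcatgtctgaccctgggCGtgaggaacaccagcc
The promoter of PTMA (chr2:231708275-231708524, plus strand), which encodes the nuclear protein prothymosin alpha, held 32 CG dinucleotides. That of CSKMT (chr11:62665062-62665311, plus strand) held 29, that of PRKG1-AS1 (chr10:52314129-52314378, minus strand) 17 and that of the histone gene HIST2H3A (chr1:149852358-149852607, plus strand) 14. On the low side, KRT82 (chr12:52406336-52406585, minus strand) and LINC00593 (chr15:69834984-69835233, plus strand) held 1 each, CIDEC (chr3:9878813-9879062, minus strand) held 4 and LOC101928626 (chr1:629010-629259, minus strand) held 7. A match to TATAAA, the core of the TATA box, stood on either strand in HIST2H3A, PRKG1-AS1, CSKMT and KRT82, so it occurred at both ends. The LOC101928626 sequence runs into MTND1P23 (chr1:629062-629440), a pseudogene that is a nuclear copy of a mitochondrial gene. These sequences illustrate single windows, and the counts over all promoters follow further on.

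The ChIP libraries held 2186520 (replicate 1) and 1952467 (replicate 2) counts in the windows, and the inputs held 268629 and 214456. Replicates are named so by the labels, which do not say that they came from separate cultures, so the p-values measure the spread between these libraries only. The ChIP libraries ranked windows much alike (Spearman's rho 0.951 across tested windows, which are not independent replicates), whereas the inputs did so weakly (rho 0.311). Input replicate 1 stood apart: it had no count in 1308 of the tested windows, against 124 for input replicate 2, and 1.43% of its counts lay in mitochondrial windows against 0.137%. The median tested window held 9 and 8 input counts, so the input, not the ChIP, set the precision of most ratios. Cell identity was read at marker windows. The epithelial genes EPCAM, KRT18 and KRT19 were called higher in ChIP, but of the 22 tested colon markers only 7 had a positive log2 ratio, 4 were called higher and 3 lower, among them ASCL2 and KRT20. Of 20 blood cell markers 9 were tested and none was called by edgeR. All 9 had a negative log2 ratio, 5 of them with an unadjusted p under 0.05, and limma-voom called 4 lower while DESeq2 called 0. A window with little ChIP is tested only when its input is high, so negative ratios were favoured among these 9. Summed over all 20 markers, ChIP was 0.382 and 0.344 times input in replicates 1 and 2.

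Counts were scaled to each library's total and tested by the quasi-likelihood method of edgeR, and p-values were adjusted (Benjamini-Hochberg) over the 20489 windows that passed the filter on low counts. ChIP exceeded input in 986 windows (4.81% of those tested) and fell below it in 895 (4.37%). The median log2 ratio was -0.24, and the 10th and 90th percentiles were -2.28 and 1.35. All 986 and all 895 had the same sign in both replicate numbers. The calls were made from these same libraries, so this agreement is no separate support for them. The windows called higher held 19.6% and 18.1% of the ChIP counts in replicates 1 and 2, against 3.60% and 4.37% of the input counts. A further 7670 windows had too few counts to be tested, 2656 of them with none in either input. Without ChIP replicate 1, or without ChIP replicate 2, no window passed in either direction by edgeR. At an unadjusted p under 0.05, 704 and 727 were then higher, and 872 and 1846 lower. Without input replicate 1 there were 2197 higher and 1499 lower calls, and without input replicate 2 there were 4324 and 3866. In these fits 1 input library stands alone and is assumed to vary like the ChIP pair, which alone gives the spread. The split also depended on the scaling: TMM factors gave 2479 higher and 564 lower, with the median of all windows up by 0.45, so 81.5% of calls were higher against 52.4%. A change of scaling shifts all windows together, so ranks and differences from the median of all windows depend on it less than signs do.

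**Figure D1:**
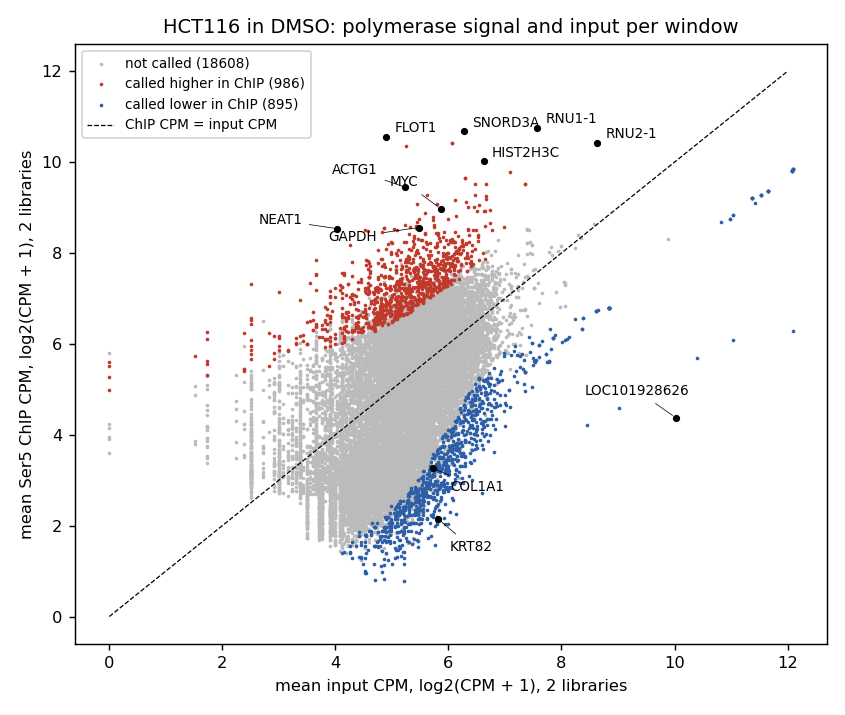
Each point is 1 tested window, with mean input CPM on the x axis and mean Ser5 ChIP CPM on the y axis, both as log2(CPM + 1) over 2 libraries, and colour showing the 986 windows called higher and the 895 called lower. FLOT1, SNORD3A and RNU1-1 stand at the top, and LOC101928626 lies far below the dashed line of equality.

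The U1 and U3 RNA genes had the highest ChIP CPM of all windows called higher. SNORD3A on chromosome 17 (chr17:19187716-19188715) encodes U3, the nucleolar RNA that guides early cleavage of the ribosomal RNA precursor. It had 2376 and 911 CPM (counts scaled to a library total of 1000000) in ChIP replicates 1 and 2, against 59.6 and 93.3 CPM in the inputs. That is a 21.7-fold ratio (log2 4.44 ± 0.59 SE, n = 2 against 2, edgeR adjusted p = 0.0217). Both ChIP values lay above both inputs, but the ChIP replicates themselves differed widely. The window shared by SNORD3B-1 and SNORD3B-2 had 1882 and 870 CPM in ChIP against 67.0 and 65.3 in input (log2 4.38 ± 0.53). SNORD3D and SNORD3C, further U3 copies, had log2 ratios of 3.06 ± 0.68 and 2.83 ± 0.68, with ChIP values of 1188 and 286 CPM for SNORD3D. These copies are nearly identical, so how the authors' counting assigned reads among them is uncertain. Small nucleolar RNAs in all, U3 included, were spread widely: of 304 tested windows 34 were called higher and 8 lower, with a median of 0.23. Without the U3 windows 29 of 299 were called higher and 8 lower (median 0.07), and 4 were called higher among windows that overlap no other. Over all genes 553 of the 14996 tested windows that overlap no other were called higher. How many of those are small nucleolar RNA windows is not given here, so the 4 cannot be read as a share. Most of these RNAs lie in introns of host genes.

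The U1 genes, whose RNA recognises the start of introns, behaved alike because RNU1-1, RNU1-2, RNU1-3, RNU1-4 and RNVU1-18 shared 1 listed window. It held 2302 and 1149 CPM in ChIP against 201 and 177 in input (log2 3.19 ± 0.47, adjusted p = 0.0217, edgeR). RNU2-1, the gene of U2, which binds the branch point, had 1630 and 1112 CPM in ChIP, yet its input was also high, at 465 and 322 CPM, and the ratio was 3.48-fold. RNU12, of the minor spliceosome, reached a higher ratio (log2 4.01 ± 0.57) from 488 and 241 CPM, in a window that overlaps POLDIP3. Of 26 tested windows of spliceosomal RNAs 15 were called higher and none lower, with a median log2 ratio of 2.45. The U1 window counts 5 times among them. With each distinct window taken once, 11 of 21 were called higher (median 2.34), and summed ChIP over all 23 distinct windows exceeded input 6.12-fold in replicate 1 and 4.57-fold in replicate 2. The median ratio of ChIP replicate 1 to replicate 2 in this group was 1.00 on the log2 scale, against -0.07 for all windows, so its level differed between replicates while the direction did not. Not all small nuclear RNA windows were high. Of the 61 tested that RefSeq classes as small nuclear RNA, 16 were called higher and 22 lower (median -0.27). The share called lower was 36.1%, against 4.37% of all tested windows. Listed windows of that class number 63 and hold 41 distinct ones.

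Replication-dependent histone genes, which are short, intronless and transcribed in bursts during DNA synthesis, came next. HIST2H3C and its neighbour copy HIST2H3A (chr1:149852319-149853318) encode histone H3 and had 1220 and 851 CPM in ChIP. Their inputs were far apart, at 40.9 and 154 CPM, and the ratio was 10.9-fold (log2 3.45 ± 0.57). HIST1H1E, a linker histone gene, had 431 and 306 CPM against 26.1 and 37.3 (log2 3.56 ± 0.44), and HIST1H4K, a histone H4 gene, had 482 and 422 against 81.9 and 56.0 (log2 2.69 ± 0.38). Of 65 tested histone windows 34 were called higher and none lower, with a median of 1.91. Of the 76 listed windows 33 overlap another. Among histone windows that overlap no other, 11 were called higher, against 553 of the 14996 such windows tested over all genes. Here too ChIP replicate 1 was above replicate 2, by a median of 0.63 on the log2 scale.

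Among protein-coding genes the FLOT1 window had the highest ChIP CPM. FLOT1 encodes flotillin, a membrane scaffold protein, and its window overlaps that of IER3-AS1, so the reads cannot be given to 1 of them. It had 1401 and 1623 CPM in ChIP against 29.8 and 28.0 in input, a 52.0-fold ratio (log2 5.70 ± 0.47, adjusted p = 0.0129, edgeR). The replicates were close in both assays. IER3 itself, an immediate early gene, had 505 and 636 CPM in ChIP against 104 and 32.6 in input (log2 3.01 ± 0.49). ACTG1, cytoplasmic gamma actin, had 629 and 763 CPM against 40.9 and 32.6, an 18.7-fold ratio (log2 4.23 ± 0.43). DKK1, a secreted inhibitor of Wnt signalling, had 553 and 688 CPM against 63.3 and 32.6 (log2 3.66 ± 0.44), in a window that overlaps PRKG1-AS1. MYC, the growth-promoting transcription factor, had 419 and 585 CPM against 44.7 and 69.9 (log2 3.15 ± 0.42). CCDC85B had 749 and 1015 CPM against 171 and 97.9 (log2 2.70 ± 0.42). In all of these windows both ChIP values exceeded both inputs. The windows whose sequences stand above behaved likewise: PTMA had 376 and 410 CPM in ChIP against 44.7 and 60.6 in input. CSKMT had 377 and 397 against 37.2 and 46.6, in a window that overlaps C11orf98 and SNORA57, and PRKG1-AS1 had 493 and 585 against 63.3 and 46.6.

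NEAT1, the noncoding RNA scaffold of paraspeckles, had 373 and 367 CPM in ChIP against 7.45 and 23.3 in input (log2 4.65 ± 0.51, adjusted p = 0.0217, edgeR). MALAT1, its neighbour on chromosome 11 and an abundant nuclear RNA, had 78.2 and 82.5 against 37.2 and 18.7 CPM and did not pass (log2 1.48 ± 0.44, adjusted p = 0.0591, edgeR). TERC, the RNA template of telomerase, was called higher at log2 2.25 ± 0.39. GAPDH, of glycolysis, had 370 and 383 CPM against 26.1 and 60.6 (log2 3.16 ± 0.44), and ACTB, beta actin, had 285 and 328 against 78.2 and 56.0 (log2 2.17 ± 0.37). The ChIP replicates of these genes were close, whereas the inputs of NEAT1, MALAT1 and GAPDH were far apart.

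**Figure D2:**
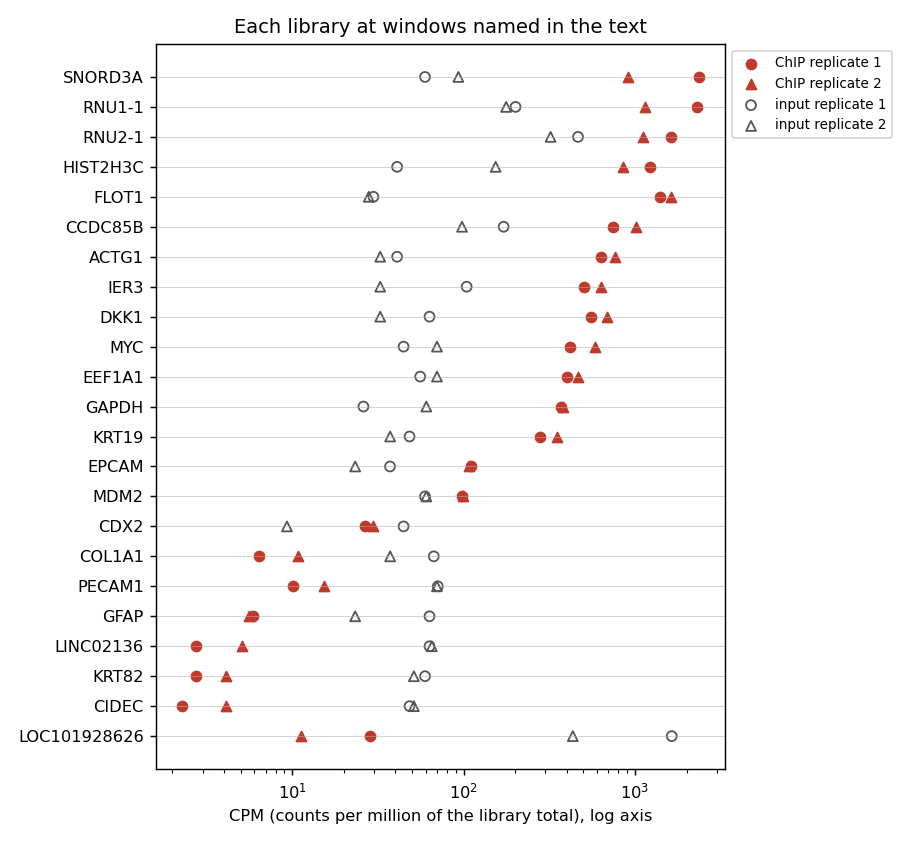
CPM in each of the 4 libraries (x axis, log scale) at 23 windows, with filled symbols for ChIP and open symbols for input. ChIP lies above both inputs for SNORD3A down to MDM2 and below both for COL1A1 down to LOC101928626. The U3 window, the U1 window and LOC101928626 show wide gaps between ChIP replicates.

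Genes of growth and protein synthesis formed a broad upper tier. Of 86 cytosolic ribosomal protein genes 42 were called higher and none lower, with a median log2 ratio of 1.67 against -0.24 for all tested windows. RPL13 had 471 and 496 CPM in ChIP against 81.9 and 97.9 in input, and RPS12 had 218 and 219 against 14.9 and 37.3. Translation factors had 10 of 36 called higher (median 1.13), among them the elongation factors EEF1A1 (402 and 462 CPM against 55.8 and 69.9) and EEF2 (134 and 162 against 11.2 and 18.7) and the helicase EIF4A1 (344 and 417 against 44.7 and 60.6). Cytoskeletal genes had 8 of 15 called higher (median 1.89), with TUBB4B at log2 3.33 ± 0.40 and the actin-severing CFL1 at 3.50 ± 0.44. Heat shock chaperones had 9 of 25 called higher (median 1.16). Within them the constitutive HSPA8 was called at log2 1.87 ± 0.47, whereas the stress-induced HSPA1A did not pass, at -0.11 ± 0.35 (61.3 and 57.4 CPM against 67.0 and 60.6). Mitochondrial ribosomal proteins sat lower than the cytosolic ones, at a median of 0.75 with 10 of 78 called higher. No member of these 5 lists was called lower. Summed over all members, ChIP exceeded input 3.07-fold and 2.98-fold for cytosolic ribosomal proteins in replicates 1 and 2 and 1.99-fold and 1.76-fold for the mitochondrial ones.

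Immediate early genes, which answer growth factors and stress within minutes, had 15 of 38 called higher and 1 lower (median 1.32). PHLDA1 had 286 and 289 CPM in ChIP against 3.72 and 32.6 in input (log2 4.09 ± 0.58), and FOSL1, an AP-1 subunit, had 187 and 258 against 29.8 and 32.6 (log2 2.83 ± 0.42). JUN passed narrowly (log2 1.67 ± 0.43, adjusted p = 0.0473, edgeR). FOS did not (log2 1.76 ± 0.59, adjusted p = 0.0771, edgeR): its ChIP values were 121 and 123 CPM, but its inputs were 7.45 and 69.9. EGR2 was the member called lower, at 8.69 and 9.22 CPM against 67.0 and 32.6.

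The p53 pathway is the subject of the series, and its genes were not at the top in solvent. Of 37 listed targets 35 were tested, 3 were called higher and none lower, with a median of 0.55. Those called were PLK2 (log2 1.90 ± 0.46), TRIAP1 (1.49 ± 0.38) and GADD45A (1.38 ± 0.36), and none of the 35 was called with the replicate number as a block. CDKN1A, the cell cycle inhibitor, had 101 and 124 CPM in ChIP, but its inputs were 22.3 and 93.3 and the ratio did not pass (log2 1.03 ± 0.51, adjusted p = 0.175, edgeR). MDM2, the ubiquitin ligase of p53, had 97.9 and 99.4 CPM against 59.6 and 60.6, with no overlap between assays, and did not pass either (log2 0.71 ± 0.34, adjusted p = 0.163, edgeR). Cell cycle genes on the DREAM list, named for a complex that represses them, had 2 of 35 called higher (median 0.57), PCNA and TYMS, a share of 5.71% close to the 4.81% of all windows. Input replicate 1 had no count at TYMS.

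Subunits of the transcription machinery lay between these tiers. Polymerase II and pausing factor genes had 5 of 30 called higher (median 0.54), among them POLR2A, the largest subunit, with 343 and 258 CPM in ChIP against 85.6 and 51.3 in input. GTF2B, an initiation factor, reached log2 3.08 ± 0.54, and SUPT5H, a subunit of the pausing factor DSIF, 1.86 ± 0.44. Mediator subunits, the group the peptide is meant to keep from p53, had a median of 0.08 with 1 of 32 called higher, MED22, whose window overlaps RPL7A. That share, 3.1%, is near the 4.81% of all windows. Proteasome subunits had 2 of 38 called higher (median 0.33), a share of 5.26% that is close to the 4.81% of all windows. Cholesterol synthesis genes had 2 of 23 called higher (median 0.12) and 0 with the replicate block. Glycolysis genes had 4 of 16 called higher (median 0.86).

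Genes transcribed by polymerase III, which lacks the tail that 3E8 recognises, gave a mixed picture: 2 of 19 tested were called higher and 1 lower (median -0.27). RPPH1, the RNase P RNA, had 248 and 224 CPM against 52.1 and 46.6, in a window that overlaps PARP2, a polymerase II gene. RN7SL1, the RNA of the signal recognition particle, was the other call, in a window that overlaps no other: it had 105 and 68.1 CPM against 26.1 and 18.7 (log2 1.93 ± 0.49, adjusted p = 0.0468, edgeR). RN7SK, the RNA that restrains the elongation factor P-TEFb, had 14.2 and 14.9 CPM against 33.5 and 28.0 and did not pass (log2 -1.08 ± 0.65, adjusted p = 0.256, edgeR). VTRNA1-2, a vault RNA, was called lower at 8.23 and 5.12 CPM against 81.9 and 42.0. The 20 windows named for ribosomal RNA, made by polymerase I, were all called lower (median -2.26). They hold only 7 distinct windows of a repeated locus.

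**Figure D3:**
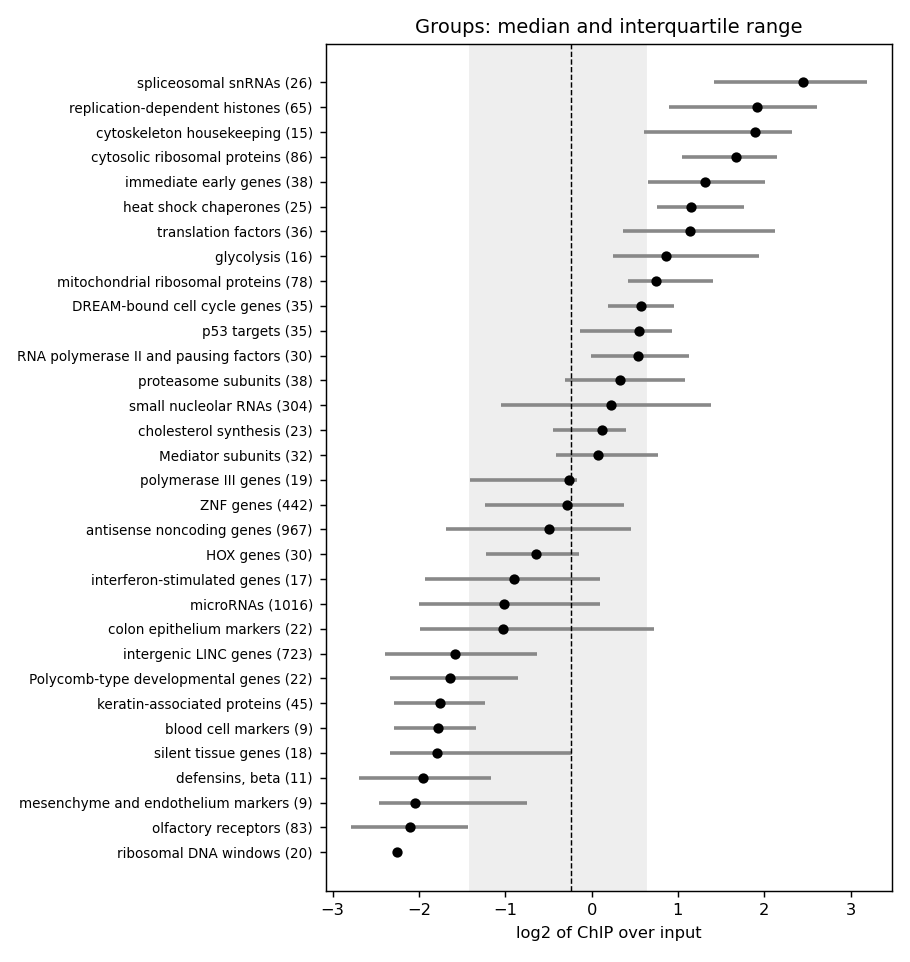
Points give the median log2 ratio of ChIP over input of the tested members of each group (number in brackets), bars the interquartile range, and the dashed line and grey band the same for all tested windows. Spliceosomal RNAs and histones lie highest, at medians of 2.45 and 1.91, and olfactory receptors and ribosomal DNA lowest, at -2.10 and -2.26.

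At the low end stood genes of other tissues and intergenic noncoding genes. Of 423 olfactory receptor windows only 83 had enough counts to be tested, and 14 of these were called lower and none higher (median -2.10). Because a window with little ChIP passes the filter only when its input is high, the sum over all 423 is the fairer value: ChIP was 0.408 and 0.370 times input in replicates 1 and 2. OR52M1 had 1.83 and 1.54 CPM in ChIP against 44.7 and 28.0 in input. Beta defensins, small antimicrobial proteins, had 11 of 42 tested and 2 called lower (median -1.95), and their sum over all 42 was 0.371 and 0.308 times input. Keratin-associated proteins of hair had 45 of 93 tested and 2 called lower (median -1.76), a share of 4.44% that is close to the 4.37% of all windows. Their summed ChIP over all 93 was 0.315 and 0.589 times input. Developmental regulators of the kind silenced by Polycomb had 3 of 22 called lower (median -1.64), such as PAX9 with 3.66 and 4.61 CPM against 44.7 and 32.6, and summed over all 34 ChIP was 0.303 and 0.490 times input. DESeq2, the replicate block and scaling to olfactory receptor windows each left 0 lower calls among the beta defensins and among the developmental regulators. Intergenic LINC genes had 76 of 723 called lower and 4 higher (median -1.59), and microRNA genes 79 of 1016 lower and 29 higher (median -1.02). Over all 1824 LINC windows summed ChIP was 0.527 and 0.575 times input, and over all 1878 microRNA windows 0.504 and 0.578 times, nearer to input than the medians of tested windows. With DESeq2 the lower calls were 18 for LINC genes and 30 for microRNAs. When libraries were scaled to their olfactory receptor windows, there were 8 and 10. That scaling moves the median of all windows up by 1.38, and relative to that median LINC genes lay below in every setting run, by 0.66 to 1.54.

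The lowest single windows were mostly tissue-restricted or noncoding. LOC101928626 (a long noncoding gene on chromosome 1) had 28.4 and 11.3 CPM in ChIP against 1638 and 434 in input, so input was 51.9-fold higher (log2 -5.70 ± 0.74, adjusted p = 0.0217, edgeR). RefSeq places a run of pseudogenes that are nuclear copies of mitochondrial genes in and beside this window. MTND1P23 lies wholly inside it, MTND2P28 begins inside it, and others such as MTCO1P12 follow. The inputs of LOC101928626 differed in the same direction as the mitochondrial share of the input libraries, and the part of this in the ratio was not tested. KRT82, a hair keratin, had 2.74 and 4.10 CPM against 59.6 and 51.3 (log2 -3.99 ± 0.71). CIDEC, a lipid droplet protein of fat cells, had 2.29 and 4.10 CPM against 48.4 and 51.3 (log2 -3.93 ± 0.75), and CYP11B2, the aldosterone synthase of the adrenal gland, 2.74 and 4.10 against 40.9 and 56.0. In each of these 3 windows ChIP lay far below both inputs, but rests on few counts. FTLP10, THSD4-AS1, MIR1293, LINC02136, TMEM92-AS1 and LINC00593 complete the 10 lowest windows with at least 10 counts in each input, at log2 ratios from -4.19 to -3.51.

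Colon genes lay in both directions. Of 22 tested markers 4 were called higher and 3 lower, with a median of -1.03. KRT19, a simple epithelial keratin, had 278 and 353 CPM in ChIP against 48.4 and 37.3 in input, and KRT18 had 225 and 342 against 96.8 and 51.3. EPCAM, the epithelial adhesion molecule, had 111 and 107 CPM against 37.2 and 23.3. ASCL2, a factor of intestinal stem cells, and KRT20, a keratin of differentiated colon cells, were called lower, at log2 -3.77 ± 0.87 and -3.28 ± 0.86. CDX2, the intestinal homeobox factor, had 26.5 and 29.7 CPM against 44.7 and 9.33, so its inputs lay on either side of ChIP. Fibroblast and endothelial markers had 9 of 15 tested and 2 called lower, COL1A1 (6.40 and 10.8 CPM against 67.0 and 37.3) and PECAM1 (10.1 and 15.4 against 70.7 and 69.9). ALB, MYOD1 and PTPRC, of liver, muscle and leukocytes, had too few counts to be tested.

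Promoter sequence, which the ranking did not use, varied along it. In 13616 tested windows the 250 bases before a RefSeq start lay inside the window, and these were divided into deciles by log2 ratio. The CpG observed over expected ratio, which is low where methylation has eroded CG dinucleotides, had a median of 0.378 in the lowest decile, 0.820 in the fifth and 0.882 in the highest. Most of the rise thus lay in the lower deciles. The motif TATAAA, searched on both strands whether or not it overlapped another motif, occurred in 11.4% of promoters in the lowest decile, 3.16% in the sixth and 8.37% in the highest, so it was commoner at both ends than in the middle. It occurred in 9.18% of all 17692 promoters of that length. Among promoters called higher 92.3% had a CpG ratio of at least 0.6 and 11.3% held TATAAA. Among those called lower the shares were 43.1% and 8.10%, and among tested promoters in all 75.1% and 5.91%. The GC box GGGCGG, which itself contains a CG, rose from 36.6% in the lowest decile to 72.0% in the highest (54.6% of all promoters), while CCAAT stayed between 31.8% and 36.4% (34.2% of all). Restricted to windows that overlap no other, TATAAA was found in 12.9%, 4.13% and 7.75% of the lowest, sixth and highest deciles. Counts also follow GC content within each library: across promoters Spearman's rho with GC was 0.497 and 0.568 in ChIP, 0.354 and 0.510 in input, and 0.231 for the ratio. These correlations share the same libraries and base composition, and the part of GC in the ratio was not tested.

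**Figure D4:**
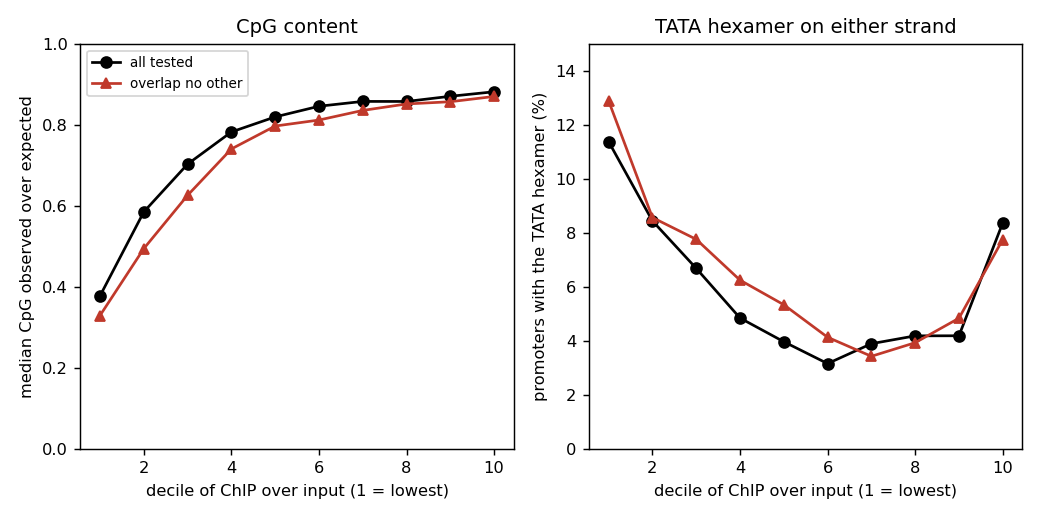
Left, the median CpG observed over expected ratio; right, the share of promoters with the TATA hexamer, by decile of log2 ChIP over input (x axis, 1 = lowest), for all tested windows (black) and those that overlap no other (red). CpG content climbs from 0.378 and levels off, whereas the hexamer is commonest in the lowest decile (11.4%), rare in the sixth (3.16%) and commoner again in the highest (8.37%).

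HOX genes, which pattern the body axis, had none of 30 tested called in either direction by edgeR (median -0.65), with 2 higher and 5 lower at an unadjusted p under 0.05. DESeq2 called 0 as well, and limma-voom called 3 lower. Of all tested windows edgeR called 4.81% higher and 4.37% lower, so 30 windows at those shares would hold few calls. ZNF zinc finger genes sat at the middle of the ranking, with a median of -0.28 and 12 higher and 9 lower of 442. Those shares, 2.71% and 2.04%, were below the 4.81% and 4.37% of all tested windows. Interferon-stimulated genes, silent in most resting cells, had 17 of 24 tested, with 3 called lower and 1 higher (median -0.90). Summed over all 24, ChIP was 0.737 and 0.887 times input in replicates 1 and 2, nearer to input than the median. The antiviral OAS2 had 5.03 and 2.56 CPM in ChIP against 63.3 and 18.7 in input, while IRF7, a regulator of the group, had 81.9 and 119 against 29.8 and 28.0.

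The kind of gene and the crowding of start sites also went with the ratio. Among tested windows protein-coding genes had a median log2 ratio of -0.08, long noncoding genes -0.94 and transcribed pseudogenes -1.09. Summed over all members, tested or not, ChIP was 1.16 and 1.14 times input in replicates 1 and 2 for protein-coding genes. For long noncoding genes it was 0.833 and 0.872 times and for transcribed pseudogenes 0.698 and 0.786 times, nearer to input than their medians. Windows that overlap another gene's had a median of 0.19, against -0.46 for those that overlap none, and 7.43% of the former were called higher against 3.85% of the latter. Antisense genes, many of which share a start region with a partner, had 33 of 967 called higher and 44 lower. These shares, 3.41% and 4.55%, are close to the 4.81% and 4.37% of all tested windows. Of all 1464 antisense windows 555 overlap another. Among the remaining, fewer windows 6 were called higher, against 553 of the 14996 tested windows of all genes that overlap no other. The effect of a shared start was not tested. The counts carry no stated strand, so reads at a gene and its antisense partner cannot be told apart.

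The ranking was then read in libraries it had not used. In cells electroporated with the peptide and kept in DMSO, with 1 ChIP library and 2 inputs of their own, 972 of the 986 windows called higher again had a positive log2 ratio, with a median of 1.49. Of the 895 called lower 830 had a negative one, with a median of -1.27. Over all tested windows 43.4% were positive and the median was -0.18. FLOT1 had a log2 ratio of 5.04 there, MYC 3.49, DKK1 3.79 and CCDC85B 4.03, against 5.70, 3.15, 3.66 and 2.70 without peptide. Others had smaller ratios than without peptide: NEAT1 2.90 against 4.65, SNORD3A 2.89 against 4.44, SNORD3B-1 2.57 against 4.38, ACTG1 2.77 against 4.23 and CFL1 1.66 against 3.50. Mean input CPM was higher with peptide at each of these windows. In that order it was 48.1 against 15.4, 121 against 76.4, 131 against 66.1, 107 against 36.8 and 54.2 against 16.8. ChIP CPM there was 365 against a mean of 370, 903 against 1643.5, 779 against 1376.3, 734 against 696 and 173 against 189. Ratios with peptide are plain ratios with a prior count, whereas those without peptide are fitted values. Among the windows named here as lowest, CIDEC had -2.88 and LOC101928626 -3.56, but KRT82 had 0.33 and so went against its ratio without peptide. A single ChIP library allows no test of these values, and differences between conditions were not assessed from them. Within the DMSO libraries, windows were ranked by the ratio of replicate 1 alone, among 9970 with at least 10 counts in input replicate 1. The 100 highest had a median of 2.58 there and 2.36 in replicate 2, where 100 were positive. The 100 lowest had a median of -4.65 there and -1.52 in replicate 2, where 97 were negative. All 9970 had passed the filter on low counts, which used replicate 2 as well. A window with little ChIP passes it only when its input is high, so negative values in replicate 2 were favoured among the 100 lowest. Their sign there is therefore no separate support. The median of all 9970 in replicate 2 was -0.05.

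**Figure D5:**
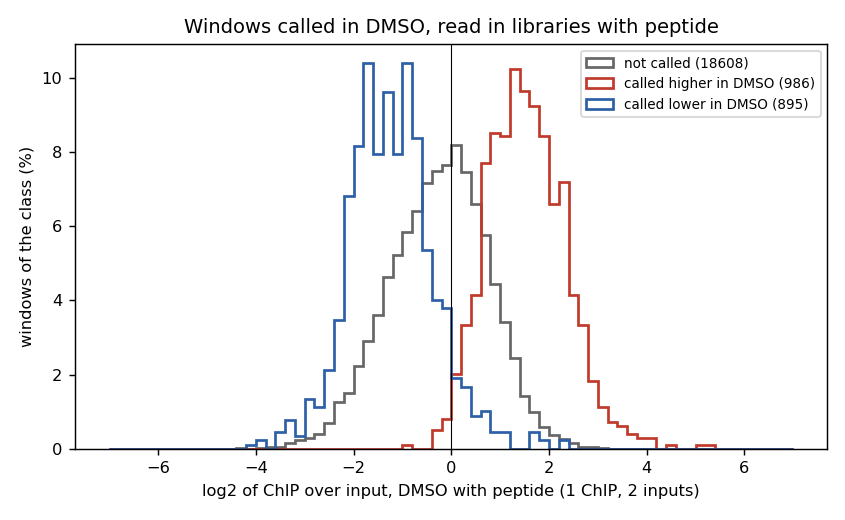
Histograms of the log2 ratio in DMSO with peptide (1 ChIP library over the mean of 2 inputs; y axis, percent of windows of each class) for windows called higher, called lower and not called without peptide. The windows called higher centre on 1.49 and those called lower on -1.27.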

How the data were processed

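Per the labels' protocols, HCT116 chromatin was fixed with formaldehyde, sheared by sonication and precipitated with antibody 3E8. The authors deposited raw read counts in 28159 windows (hg38 per the submitters' processing notes), and per the file headers a scaled signal for each ChIP library, which entered no result. The aligner, counter, read filters and the rule that placed the windows are not given in the sources used here. If polymerase signal entered the choice of start site, ratios at the chosen starts would be raised, and this was not tested. Every sample column was mapped by its title.

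Counts were scaled to each library's total (CPM) and tested with edgeR 4.0.16 in R 4.3.3 (glmQLFit, glmQLFTest, filterByExpr with minimum count 10, Benjamini-Hochberg threshold 0.05) on 2 ChIP and 2 input libraries. The residual degrees of freedom were 2, the prior ones 7.09, and the common biological coefficient of variation was 29.2%. Errors are approximate standard errors, calculated back from the log2 ratio and the F statistic of the edgeR test. Ratios with peptide used a prior of 1 count. limma-voom (limma 3.58.1) and DESeq2 1.42.0 were alternatives. The procedure was tested on simulated data, where recovery of changed windows fell short of the threshold first set for it, and that threshold was then lowered. Windows are 1-based. Of the table's genes 99.4% matched RefSeq, and 22.0% of windows overlap another, so their reads count for both.

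Windows were named by rule: the 15 largest and 10 smallest ratios among called windows with at least 10 counts in each input, the 15 highest in ChIP CPM, a fixed set, and per list up to 3 called higher and 2 called lower with the smallest p. Mitochondrial and Y windows are not named. Some windows that the rule names are not reported here. Members and lists were chosen with earlier results of these data known.

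The sample sheet written at the start put the 7 Nutlin3a libraries in DMSO groups by mistake, and it could not be corrected later. These libraries therefore entered no comparison, except that 4 Nutlin3a inputs entered an alternative that pools all 8 inputs. The planned comparison of Nutlin3a with DMSO was not run. The windows kept in the scaling and left-out-library alternatives were set to the main 20489 after first results were seen. Counts of distinct windows, the small nucleolar RNAs without U3 and the ranking by replicate 1 alone were also chosen after seeing the data.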

Additional observations from a re-analysis of the deposited data

How the results depend on the processing

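Against 986 higher and 895 lower calls by edgeR, the other settings gave these counts, higher before lower. TMM gave 2479 and 564, scaling to olfactory receptor windows 6746 and 70, and DESeq2 612 and 247. limma-voom gave 1205 and 3380, no filter 1446 and 1393, and edgeR with legacy=FALSE 1383 and 1804. All 8 inputs as 1 group gave 2064 and 3085, and windows that overlap no other 553 and 688. A mean input count of at least 10 gave 758 and 1329. Totals without mitochondrial and unplaced windows, a choice made after seeing the data, gave 871 and 1205. Leaving out each library in turn gave 0 to 4324 higher and 0 to 3866 lower calls, 0 without either ChIP library, where a fit has fewer samples. The cause of the other shifts was not tested. The 986 windows called higher kept a positive ratio in each setting that included them. Those called lower kept a negative one, except 13 of 895 under olfactory receptor scaling and 1 without input replicate 1.

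With the replicate number as a replicate block, 522 windows were called higher and 299 lower, of which 510 and 289 were among the main calls. The libraries share only a number: deviations of same-numbered libraries correlated at 0.037. With a prior of 5 counts the ratios with peptide gave the same 972 and 830. TATAAA in the lowest decile moved from 11.4% to 12.9% without overlapping windows, and the median CpG ratio there from 0.378 to 0.329. A fit to all 14 libraries, and the Nutlin3a alternatives, were not run because of the sample sheet error described with the processing. Input depth limits most ratios: a median of 9 and 8 counts per tested window.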

Other observations

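A set of 152 promoters called lower had CpG-rich sequence, with a CpG observed over expected ratio of at least 0.6 and GC content of at least 60%. Such sequence was not typical of lower calls. By the CpG ratio alone, 186 of 432 promoters called lower (43.1%) reached 0.6, against 75.1% of tested promoters. AMOT, a cell junction protein, had 2.29 and 2.56 CPM in ChIP against 59.6 and 42.0 in input. FN1, the matrix protein fibronectin, had 3.66 and 8.19 CPM against 74.5 and 51.3. ADCY2, an adenylate cyclase, had the lowest ratio of the set (log2 -4.37 ± 0.93) but rests on 8 and 3 input counts. Its log2 ratio with peptide was 0.49, against -2.35 for AMOT.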
